A study of Mus musculus with 4 samples.

Results

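Genes of the placodal network around Six2, Eya1 and Pax6, together with Gbx2, were examined in the chromatin of the facial surface ectoderm. The set comprised 9 genes, Six2, Six3, Six4, Eya1, Eya2, Eya4, Pax6, Pax9 and Gbx2, of 21829 protein-coding genes with a start site on the 21 chromosomes. Each gene was represented by the start site of its principal transcript (GENCODE vM21 annotation, GRCm38 assembly), and every listed region whose centre lay within 100 kb of that site was assigned to it. The rule uses no measured value, but the 9 genes were chosen with earlier results of these data known. By this rule 96 of 65467 control peaks, and 0 of 3103 regions whose accessibility depended on AP-2, lay at the 9 genes. Such regions lay within 100 kb of 20.2% of all protein-coding genes.

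Cranial placodes are thickened patches of surface ectoderm that give rise to the lens, the olfactory epithelium, the inner ear and part of the cranial sensory ganglia. Six2 and its relatives encode homeodomain transcription factors, and Eya proteins are coactivators with phosphatase activity that they recruit. Pax proteins bind DNA through a paired domain, and Pax6 is known for its requirement in the lens and olfactory placodes. AP-2 transcription factors, encoded by the Tfap2 genes, act in early surface ectoderm and neural crest.

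Accessible chromatin was measured by ATAC-seq, in which a transposase inserts sequencing adapters into nucleosome-free DNA. Ectoderm was separated from the facial prominences of mouse embryos at E11.5, and 2 libraries were made per group from pooled tissue. Control littermates were Tfap2a flox/+; Tfap2b flox/+ and lacked Crect, whereas the ectodermal double knockouts (EDKO) were Crect; Tfap2a flox/flox; Tfap2b flox/flox. Both groups therefore carried floxed alleles of Tfap2a and Tfap2b, and the Crect transgene, a Cre recombinase driven in the early ectoderm by an intronic enhancer of Tfap2a and known to recombine more broadly in some embryos, was present in EDKO embryos alone, so that an effect of the transgene and of the gene loss cannot be told apart. The first list held the control peaks, called from both control libraries together. The second held the regions with more signal in the 2 control libraries than in the 2 EDKO libraries, here called AP-2-dependent regions. Each peak carried 1 value from the combined libraries, without read counts or values per library. No spread between replicates and no depth behind a peak could therefore be given, and intervals and limits below cover counting error only and treat peaks as separate, although neighbouring peaks are not independent.

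The tissue was checked by control peaks within 1 kb of the start sites of marker genes. Such a peak was present at 12 of 12 surface ectoderm markers, among them Krt5, Trp63 and Epcam, with a median −log10 p of 10.2 at the summit. It was also present at 10 of 10 mesenchyme markers with a median of 5.38, at 5 of 6 neuronal markers with a median of 4.71, at 1 of 5 endothelial markers (Kdr) and at 1 of 4 erythroid markers (Klf1). Of all protein-coding genes 64.8% had such a peak, and the median −log10 p of peaks at open start sites was 9.52. An open start site is not expression, and the part of other cell types in the peaks described here was not tested.

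The distal control peak with the largest area under the curve is shown for Six2 and Six3, Eya2, Pax9 and Gbx2, as examples of accessible segments away from start sites. Peaks whose window touched an annotated untranslated region were passed over. The area under the curve sums the −log10 p above its threshold along a peak, and distal means more than 5 kb from the principal start site of every protein-coding gene. The windows extend 100 bp on either side of the summit (forward strand of GRCm38), and capitals mark each match to GCCNNNGGC, a palindromic AP-2 consensus in which N is any base.
Six2 and Six3 peak, chr17:85645831-85646031: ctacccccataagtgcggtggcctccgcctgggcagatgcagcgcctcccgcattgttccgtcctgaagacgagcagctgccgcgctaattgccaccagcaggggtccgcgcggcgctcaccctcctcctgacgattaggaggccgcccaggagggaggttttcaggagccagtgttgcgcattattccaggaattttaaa
Eya2 peak, chr2:165601708-165601908: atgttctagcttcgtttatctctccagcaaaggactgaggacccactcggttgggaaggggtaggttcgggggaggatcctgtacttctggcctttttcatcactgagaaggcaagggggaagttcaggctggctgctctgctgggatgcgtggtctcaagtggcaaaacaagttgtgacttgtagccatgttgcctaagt
Pax9 peak, chr12:56681059-56681259: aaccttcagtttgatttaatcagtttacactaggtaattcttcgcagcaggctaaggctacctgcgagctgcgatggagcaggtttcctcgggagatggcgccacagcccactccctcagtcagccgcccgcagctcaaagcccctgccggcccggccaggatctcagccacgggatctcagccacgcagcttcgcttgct
Gbx2 peak, chr1:89968288-89968488: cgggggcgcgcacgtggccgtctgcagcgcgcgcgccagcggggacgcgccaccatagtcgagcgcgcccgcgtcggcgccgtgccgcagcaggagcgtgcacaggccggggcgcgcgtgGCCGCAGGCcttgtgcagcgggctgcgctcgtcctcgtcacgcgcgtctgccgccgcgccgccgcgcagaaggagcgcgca

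The peak that Six2 and Six3 share lay between them, 42.3 kb downstream of Six2 and 32.4 kb downstream of Six3, in intergenic sequence. The Eya2 peak lay 53.7 kb upstream of the principal start site in an intron of Eya2, and the Pax9 peak lay in intergenic sequence 14.2 kb upstream. The Gbx2 peak fell in a coding exon of Asb18, 37.1 kb upstream of Gbx2. Of these 4 windows, that of Gbx2 alone held the consensus, in sequence of 80.1% GC. No AP-2-dependent region lay within 100 kb of any of the 9 start sites. The 3 regions that came nearest to a member, all within 250 kb, are given in the same form for comparison.
Region nearest Six2, chr17:85898901-85899101: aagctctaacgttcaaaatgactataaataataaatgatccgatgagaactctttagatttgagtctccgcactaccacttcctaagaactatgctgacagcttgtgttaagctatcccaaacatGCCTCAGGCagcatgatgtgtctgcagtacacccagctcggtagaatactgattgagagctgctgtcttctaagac
Region nearest Six4, chr12:72931095-72931295: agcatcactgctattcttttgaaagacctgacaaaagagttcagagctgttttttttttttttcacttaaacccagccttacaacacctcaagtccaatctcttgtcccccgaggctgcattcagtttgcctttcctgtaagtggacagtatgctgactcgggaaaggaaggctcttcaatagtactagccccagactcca
Region nearest Pax6, chr2:105511720-105511920: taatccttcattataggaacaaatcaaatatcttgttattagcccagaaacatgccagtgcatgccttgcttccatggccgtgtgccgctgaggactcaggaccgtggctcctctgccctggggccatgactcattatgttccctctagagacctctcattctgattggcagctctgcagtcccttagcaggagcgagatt

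The region nearest Six2 lay 210.8 kb upstream of it, in an intron of the noncoding gene AC151289.1, and held 1 match to the consensus. The region nearest Six4 lay 182.4 kb downstream of it and 8.86 kb from the start site of Six6, in an intron of 4930447C04Rik. The region nearest Pax6 was intergenic, 164.3 kb upstream of it, and the closest protein-coding start site was that of Rcn1 at 112.5 kb. Neither of the latter 2 windows held the consensus. The control peaks that contained these 3 regions reached a −log10 p of 5.33, 4.46 and 8.18, and by area under the curve the regions ranked above 41.2%, 66.1% and 67.2% of all AP-2-dependent regions. None of the 3 was therefore among the strongest of its list.

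The 96 control peaks covered 92.4 kb in all, and 66 of them (68.8%) were distal, beside 70.0% of all control peaks on chromosomes. Because Six2 and Six3 lie next to each other, 21 peaks fell within 100 kb of both, and the 9 genes together held 117 pairs of a peak and a gene. By the centre of the peak, 7 of these pairs lay within 1 kb of the start site, 19 between 1 and 5 kb, 16 between 5 and 10 kb and 52 between 50 and 100 kb. The summits of 34 peaks fell in introns of protein-coding genes, 28 between genes, 12 in untranslated regions, 5 in coding sequence and 4 in other exons of protein-coding genes. A further 5 fell in exons and 8 in introns of noncoding genes. All 96 were single-copy sequence, meaning that the median 31-base word of the peak occurred fewer than 2 times in the assembly.

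**Figure D1:**
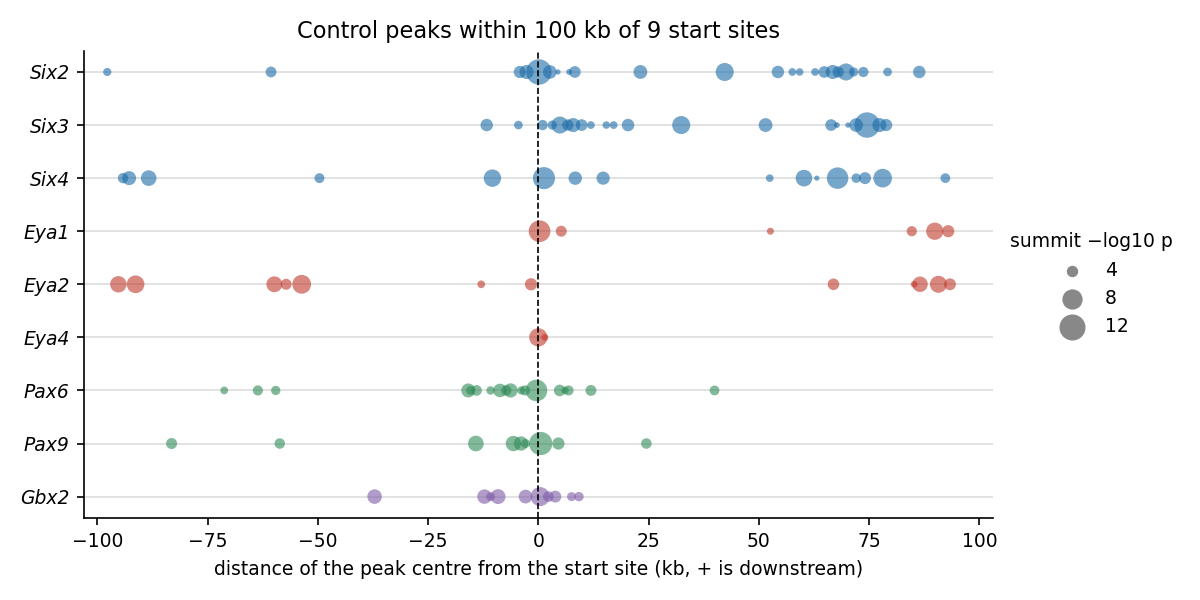
Control peaks within 100 kb of the principal start site of each gene, drawn as 1 disc per peak at the distance of its centre (kb, positive downstream), with the area of the disc growing with the −log10 p at the summit. The 21 peaks shared by Six2 and Six3 appear in both rows, Eya4 has 2 peaks, and no AP-2-dependent region falls inside the plotted window.

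Six2, Six3 and Six4 had the densest surroundings, with Pax6. Six2, a homeodomain factor known from nephron progenitors and craniofacial mesenchyme, had 23 control peaks within 100 kb, more than 94.7% of protein-coding genes. Six3, required for the rostral forebrain and the lens, had 21, more than 92.2%, and Six4, a homeodomain factor of muscle and sensory organs, had 16, more than 82.6%. The median protein-coding gene had 8. Six2 and Six3 were counted over largely the same peaks.

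The strongest of the 96 peaks was the one at the start site of Six2 (chr17:85686437-85689847), which was 3411 bp wide and reached a −log10 p of 13.2. It was wider than 97.0% of the peaks at open start sites, for which the median width was 1378 bp. At Six4 the peak at the start site (chr12:73110156-73114166) was wider still, with 4011 bp, and reached 10.6. The annotated principal start of Six3 lay in a much weaker peak, with a −log10 p of 4.30 over 2113 bp (chr17:85613511-85615623). This value exceeded that of only 4.62% of the peaks at open start sites. The 2 other annotated starts of Six3, 7226 and 7423 bp downstream, shared a peak with a −log10 p of 5.82 (chr17:85620590-85622440). The largest peak in the body of Six3 lay between them and the principal start, 4.89 kb downstream of the latter, and reached 7.36. The strongest 10% of the list began at 10.2, and no Six3 start site was in such a peak, whereas those of Six2 and Six4 were. The RefSeq promoter of Six3, used below, lay at the start 7226 bp downstream. The rank of the Six3 start-site peak and the distances from Six3 therefore depend on the start chosen.

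Between Six3 and Six2 the peaks did not form a continuous run. Around Six3, 13 peaks lay within 50 kb, from 11.7 kb upstream to 32.4 kb downstream, and 9 lay within 50 kb of Six2. On the far side of Six2 there were 4 peaks upstream of the start site, of which 2 lay within 5 kb and the others at 60.6 and 97.8 kb. The most distant of these was weak, with a −log10 p of 3.68. Of the 16 peaks of Six4, 3 were also among the 11 of Six6.

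Fewer peaks were found at the Eya genes. Eya2 had 12 control peaks, above 69.2% of genes, Eya1 had 6, above 37.4%, and Eya4 had 2, above 13.5%. At Eya1, mutated in branchio-oto-renal syndrome, a peak of 1473 bp with a −log10 p of 10.3 covered the start site (chr1:14309195-14310667), and 3 further peaks lay 84.7 to 92.9 kb downstream in introns of the gene. The strongest of these 3 reached 7.49. Both peaks of Eya4, a gene linked to hearing loss, lay within 2 kb of its start, and the one that covered it (chr10:23348928-23350903) reached 8.10. Neither Eya4 peak was distal.

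Eya2 was the exception among the 9 genes, since no control peak lay within 1 kb of its principal start site. The edge of the nearest peak was 1176 bp away (chr2:165653138-165654122), and this peak had a −log10 p of 5.06. Another annotated start of Eya2, 60266 bp upstream, lay in a peak of 6.73 (chr2:165594740-165596105). Of the 12 Eya2 peaks, 11 were distal from principal starts and 9 from every annotated protein-coding start, and the gene had the highest median −log10 p of the 9, 5.78, although none of its peaks belonged to the strongest 10%. Its strongest peak, shown above, reached 8.38, and a group of 4 intronic peaks lay 85.2 to 93.3 kb downstream with values between 3.32 and 7.35.

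Pax6 had 18 control peaks, more than 87.2% of genes, and 15 of them lay within 50 kb. They were mostly weak. Their median −log10 p was 4.27, the lowest of the 9 genes, and the peak over the principal start (chr2:105674335-105677051) reached 10.3 with a width of 2717 bp. The remaining 17 ranged from 3.48 to 5.90. The start site of the upstream Pax6 promoter lay in a separate peak, 7.29 kb upstream, with a −log10 p of 4.35 (chr2:105668540-105669137). Of the 18 summits, 7 fell in introns of the antisense transcript Pax6os1 and 2 in exons of the noncoding gene Paupar, both on the upstream side. The farthest peak downstream lay at 39.9 kb, in an intron of Elp4.

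Pax9, a paired-box factor needed for teeth, palate and pharyngeal pouch derivatives, had 9 control peaks, above 54.6% of genes. The peak over its start site (chr12:56694708-56697620) reached 11.4 with a width of 2913 bp, and the next strongest reached 6.60. An alternative start 3872 bp upstream lay in a peak of its own, at 5.96. The farthest of the Pax9 peaks, 83.2 kb upstream, fell in coding sequence of Nkx2-9 within 1 kb of the start of that gene. Gbx2, a homeobox gene of the midbrain-hindbrain boundary and the otic region, had 10 peaks, above 60.0% of genes, all within 50 kb. Its start site lay in a peak of 2002 bp (chr1:89929789-89931790) with a −log10 p of 8.53, and the 9 others ranged from 3.87 to 6.25.

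**Figure D2:**
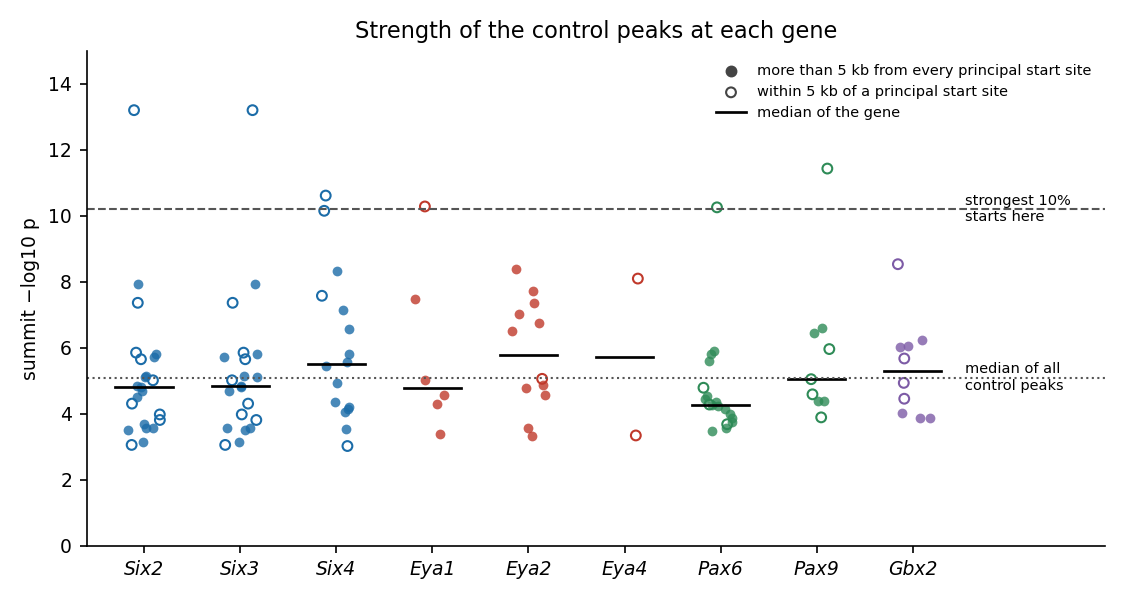
The −log10 p at the summit of each control peak within 100 kb of each gene, with filled points for distal peaks, open points for peaks closer than 5 kb to the principal start of any protein-coding gene and a bar at the median of the gene. All points above the dashed line at 10.2, where the strongest 10% of the list begins, are open, and most filled points lie below 8.

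In order of peak count the genes ran Six2, Six3, Pax6, Six4, Eya2, Gbx2, Pax9, Eya1 and Eya4. Without values per library it cannot be said which neighbours in this order differ beyond their spread. A control peak lay within 1 kb of the start site at 8 of the 9 genes, and covered it in each case, beside 64.8% of all protein-coding genes. All 8 of these peaks were wider than the median peak at an open start site. Their −log10 p was above the median of 9.52 at 5 genes (Six2, Six4, Eya1, Pax6 and Pax9), and the same 5 peaks were the only ones of the 96 in the strongest 10%. Over all transcripts, 35 of 59 distinct annotated start sites of the 9 genes lay in a control peak.

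**Figure D3:**
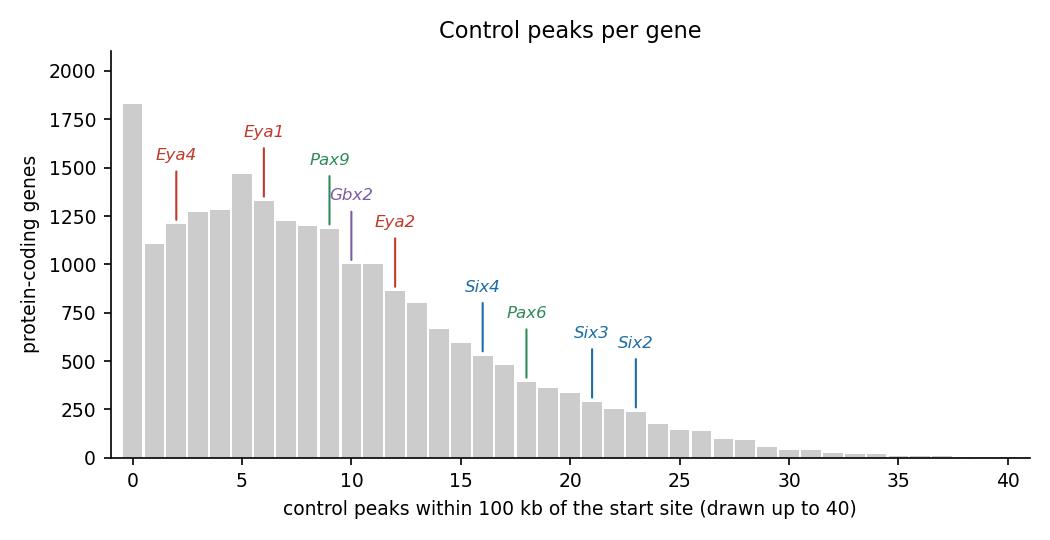
Number of control peaks within 100 kb of the start site (horizontal axis) for 21829 protein-coding genes (bars, number of genes), with the 9 genes marked. Six2, Six3, Six4 and Pax6 lie in the right tail and Eya4 at 2 peaks on the left, around a median of 8.

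The 96 peaks were wider than the list as a whole, with a median width of 709.5 bp beside 560 bp, and reached a median −log10 p of 4.82 (range 3.02 to 13.2) beside 5.10. Taken by position, the distal peaks had a median of 4.63 beside 4.66 for all distal control peaks, and a median width of 573.5 bp beside 467 bp. Those closer than 5 kb to a principal start site had a median of 5.05, beside 7.64 for all such peaks, and a width of 961 bp beside 1072.5 bp. These 30 peaks near start sites included small ones beside the start-site peaks of Six2, Six3, Eya4, Pax6, Pax9 and Gbx2, with values down to 3.05 at Six2. The lowest of the 30, at 3.02, lay 63.1 kb downstream of Six4, closer than 5 kb to the start of another gene.

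The comparison of control with EDKO ectoderm gave no region within 100 kb of a member. A rule that reaches farther than 100 kb can link more distant regions to these genes. The paper, which used GREAT, marks Pax6 and Gbx2 in its list of changed genes as having an AP-2-dependent peak. The nearest regions found here lay 164.3 kb from Pax6 and 447.1 kb from Gbx2. For enrichment of gene sets the paper states a GREAT limit of 100 kb, so reach alone is not shown to account for these marks. The reason for the difference was not tested. AP-2-dependent regions overlapped 4.48% of all control peaks, 3.65% of those within 100 kb of a protein-coding start site, and 0 of the 96 at the 9 genes, which allows a share of up to 3.13%. The upper limit of the 95% Wilson interval of this 0 was 3.85%, above the 3.65%. Since the genes were chosen with earlier results known, the 0 is a description and not independent evidence. Among distal control peaks 5.73% overlapped a region, and among the 66 distal ones here 0 did, which allows a share of up to 4.55% (Wilson upper limit 5.50%). With distal judged from every annotated protein-coding start, it was 5.95% of all and 0 of 52 here, which allows up to 5.77%. Among the peaks closer than 5 kb to a principal start site the shares were 1.54% and 0 of 30, which allows up to 10.0%. Over single genes 20.2% of all protein-coding genes had a region within 100 kb, and 26.3% of those with 6 to 23 control peaks, the range of the members other than Eya4. None of the 9 genes did. Six2 and Six3 share most of their surroundings and so do not count as separate observations.

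The overlap with AP-2-dependent regions differed with the strength of the control peak. Among all distal control peaks, 1.22% overlapped a region in the weakest 30% of the list by summit −log10 p, 4.20% in the next 30%, 12.1% in the 30% above these and 24.7% in the strongest 10%. The members had 21, 25, 20 and 0 distal peaks in these groups, and none of them overlapped a region. A peak that is missing from the second list is not shown to be unchanged in EDKO ectoderm, since the list holds only regions that passed the threshold in 1 direction, and the gain of accessibility was not analysed here.

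Beyond 100 kb the first regions appeared. Within 250 kb, 3 of 210 control peaks overlapped a region (1.43%, 95% Wilson interval 0.487 to 4.12), at Six2, Six4 and Pax6, and these 3 genes with a region compare with 41.4% of all genes at that distance. Within 500 kb it was 11 of 382 (2.88%, 1.62 to 5.08), and 7 of the 9 genes had a region beside 62.4% of all genes. Within 1000 kb it was 17 of 655 (2.60%, 1.63 to 4.12), and 8 of the 9 genes had a region beside 82.0% of all genes. The intervals at 250 and 1000 kb lay below the 4.48% of the whole list, over peaks that are not independent. Both included the 3.65% of all control peaks within 100 kb of a protein-coding start site. The share over all control peaks within 250 or 1000 kb of such a site is not given here. Eya2 was the gene without a region within 1000 kb, and its nearest region lay 2184 kb away.

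The distance from the start site to the nearest region was 164.3 kb at Pax6, 182.4 kb at Six4, 210.8 kb at Six2, 269.9 kb at Eya1 and 285.4 kb at Six3. It was 378.6 kb at Pax9, 447.1 kb at Gbx2, 668.8 kb at Eya4 and 2184 kb at Eya2. The median over the 9 genes was 285.4 kb and that over all protein-coding genes 334.0 kb, and 4 of the 9 lay farther away than the latter. The region nearest Eya1 lay upstream and held the consensus, those nearest Eya4, Gbx2 and Eya2 lay downstream without it, and that nearest Pax9 lay in an intron of Slc25a21.

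**Figure D4:**
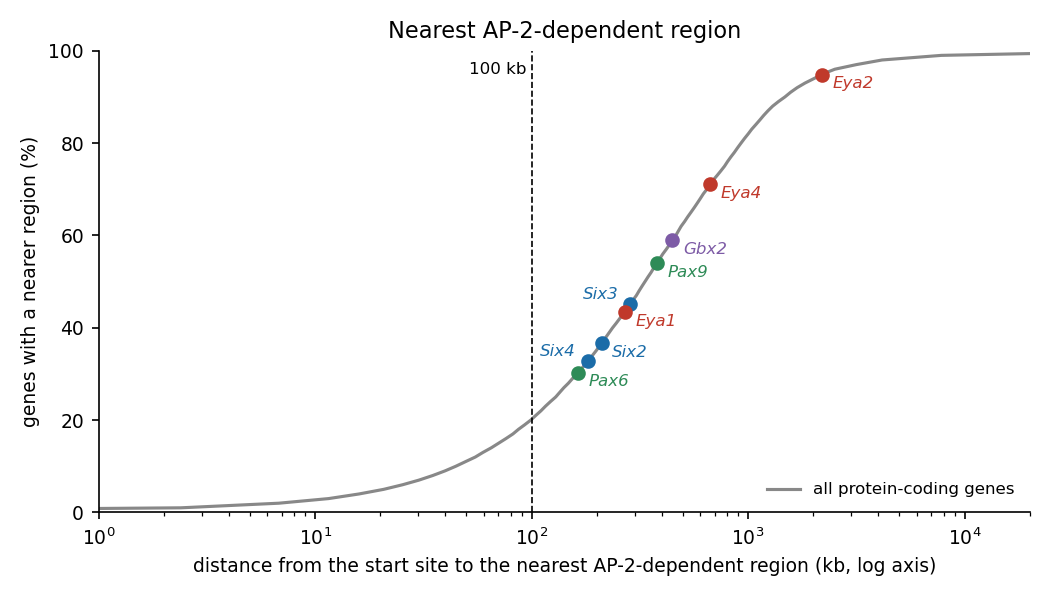
Share of protein-coding genes (vertical axis, percent) whose nearest AP-2-dependent region is closer than the distance on the horizontal axis (kb, log axis), as a grey line, with the 9 genes as points on it. All 9 points lie to the right of the dashed line at 100 kb, from Pax6 at 164.3 kb to Eya2 at 2184 kb.

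The AP-2 consensus was present in the control peaks of the 9 genes. GCCNNNGGC, searched on both strands within 100 bp of the summit, occurred at 15 of 96 peaks (15.6%, 95% Wilson interval 9.70 to 24.2), beside 14.4% of all control peaks and 22.7% of all AP-2-dependent regions. At the distal peaks it was 12 of 66 (18.2%, 10.7 to 29.1), beside 12.3% of all distal control peaks. Of the peaks with it 5 lay at Six2, of which 4 were also at Six3, 3 at Pax6, 3 at Eya2, 1 at Eya1, 1 at Eya4, 1 at Pax9 and 1 at Gbx2, and none at Six4. The form with 4 free bases between GCC and GGC occurred at 18.8% beside 12.8% of all control peaks, and GCCNNNGGG at 25.0% beside 23.3%. The 3 forms can overlap on the same bases, and 17 of the 96 windows held more than 1 of them, whereas 39 held at least 1 (40.6%, 31.3 to 50.6), beside 37.2% of all control peaks and 56.6% of all regions. The windows at the 9 genes had a median GC content of 56.0%, those of all control peaks 53.2% and those of all regions 48.8%.

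Strings of other factor families were searched in the same windows. TCANGTTTC, the MEF3 element known as a site of Six4, occurred at 4 of 96 peaks (4.17%, 1.63 to 10.2) beside 1.18% of all control peaks. Of these, 3 were within 100 kb of Six4, among them the peak at its start site, and the last lay 95.2 kb upstream of Eya2. GGAATG, the TEAD string, occurred at 10.4% (5.76 to 18.1) beside 17.9%. The homeodomain string TAATTA occurred at 3.13% beside 4.22%, and TTCACGC, a core of the Pax6 paired-domain site, at 1 peak (1.04%) beside 0.835%, the peak over the principal start of Six3. A match describes the letters only and is not a binding site.

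**Figure D5:**
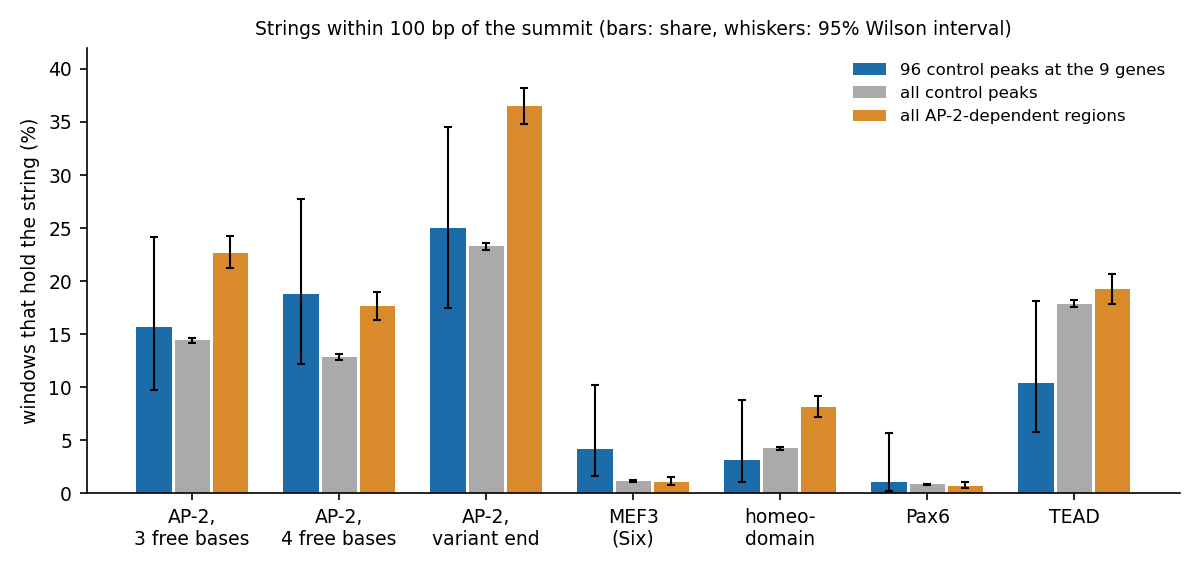
Share of summit windows (vertical axis, percent) that hold each string, for the 96 control peaks at the 9 genes, all control peaks and all AP-2-dependent regions, with 95% Wilson intervals as whiskers. For the AP-2 strings with 3 free bases and with the variant end, the bars of the 9 genes lie near those of all control peaks (15.6% beside 14.4% and 25.0% beside 23.3%), and for the MEF3 string they reach 4.17% beside 1.18%.

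RefSeq promoters of the same assembly, from 250 bases before to 50 after a start, were given for 7 of the 9 genes, in 10 entries. The start lay in a control peak for 9 of them, and the exception was a Pax6 start inside the gene, 95 bp from the nearest peak. GCCNNNGGC occurred in 2 of the 10, at Eya4 and at the upstream Pax6 promoter, beside 16.6% of all 32851 promoters. The form with 4 free bases occurred in 4, all at Six4 and Eya4, whose entries overlap, beside 14.8% of all promoters. GCCNNNGGG occurred in 5, beside 27.0%. The MEF3 string occurred in 1, at Six4, beside 1.08%.

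The other genes of the same network, a list of 13 relatives and partners (Six5, Six6, Eya3, Dach1, Dach2, Pax1, Pax2, Pax3, Pax4, Pax5, Pax7, Pax8 and Gbx1), did include genes with an AP-2-dependent region. Of their 158 control peaks 4 overlapped one (2.53%, 0.989 to 6.33). This interval included the 3.65% of all control peaks within 100 kb of a protein-coding start site. The regions lay 8.86 kb from Six6, 25.5 kb from Dach1, 84.9 kb from Gbx1 and 86.1 kb from Pax1. Thus 4 of the 13 genes had a region within 100 kb, beside 20.2% of all protein-coding genes. A control peak lay within 1 kb of 10 of the 13 start sites, beside 64.8% of all protein-coding genes. The region near Six6 was the one nearest Six4, outside the limit for that gene.

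A pair of other homeobox families was set beside the 9 genes. The 6 Dlx genes had 74 control peaks within 100 kb, of which 4 overlapped a region (5.41%, 2.12 to 13.1), and 4 of the 6 genes had a region within 100 kb, beside 4.48% of all control peaks and 20.2% of all genes. The 6 Irx genes had 72 control peaks, of which 8 overlapped one (11.1%, 5.74 to 20.4), again at 4 of 6 genes. The interval of the Irx peaks lay above the 4.48%, and that of the Dlx peaks included it. Neighbouring Dlx genes share peaks, as Six2 and Six3 do, and are not separate observations, whereas no control peak was within 100 kb of more than 1 Irx gene. The families were chosen with earlier results known, and their difference from the 9 genes was not tested.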

How the data were processed

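The authors trimmed adapters with NGmerge, aligned to mm10 with bowtie2 (--very-sensitive -k 10), sorted with Samtools and ran Genrich (version 0.5) for peaks (ATAC-seq setting, PCR duplicates and chrM left out). The deposited values per peak are a score (scaled area under the curve, capped at 1000), the area under the curve, itself a score with a minimum of 200, the −log10 p at the summit from Genrich, unadjusted, and the offset of the summit. The lists hold no counts, so the depth behind each peak is not known. Each list combined its libraries.

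Each protein-coding gene was given 1 start site, by the best APPRIS class and then the lowest transcript identifier. Distances run from the centre of a peak, counted in Python 3.11.15 with pandas 2.3.3, and overlaps from 1 bp. Whether a peak lay at a start site was judged from the nearest edge of the peak instead. Percentages carry 95% Wilson intervals (scipy 1.17.1), and a count of 0 is given with the share that 3 counts make. No test was run, because the lists hold no replicate values. Overlaps were checked against bedtools 2.31.1 on simulated intervals. The 9 genes, the gene lists and the strings were chosen with earlier results of these data known. Named genes were the 9 members, with their start-site peaks, largest peaks and nearest regions, and genes of the fixed list that share peaks with a member or have a region within 100 kb. The result of 1 further gene of that list is not reported here. Sequences were read from the RefSeq copy of GRCm38. The coverage, the gain of accessibility in EDKO embryos and expression were not analysed here.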

Additional observations from a re-analysis of the deposited data

How the results depend on the processing

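For 6 results, 34 alternative values were computed, 1 of them (distal from every annotated start) chosen after seeing the data, and 28 stayed within the interval of the value reported or, for counts, within 1.5 times of it. The other 6 moved beyond these bounds. The share of control peaks at the 9 genes that overlap an AP-2-dependent region was 0 under every alternative except the limit of 250 kb, where it was 1.43%. With that limit the number of control peaks was 210 and that of AP-2-dependent regions 3. Alternatives that kept fewer peaks or asked for a stricter overlap could return only 0 for this share. Besides the limit of 250 kb, only the most upstream annotated start and the distance from the summit could have changed it. Part of the 28 unchanged values was fixed in this way. With both lists restricted to areas under the curve from 500 upwards the median −log10 p rose to 5.76, since weak peaks were dropped. The share with GCCNNNGGC was 7.29% within 50 bp of the summit (7.42% of all control peaks), 42.7% over whole peaks (32.4% of all), and 25.0% for GCCNNNGGG. Whole peaks at the 9 genes gave more sequence to search, with a median width of 709.5 bp beside 560 bp. Their share was not adjusted for width. A peak lay at 9 of 9 start sites within 5 kb or with any annotated start, with Eya2 as the gene added in both cases.

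No paired analysis was possible because each list combines its libraries and holds no value per library, and leaving out a replicate was not possible for the same reason. The lists hold no counts, so a region whose change fell under the threshold of the authors cannot be told from one without change.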
